A study of Danio rerio with 47 samples.

Results

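Aanat1 and aanat2 encode arylalkylamine N-acetyltransferases, the enzymes that turn serotonin into N-acetylserotonin on the way to melatonin. They are 2 of the 31475 rows of an array table of zebrafish trunks. They were chosen by their own values in these arrays, because aanat1 had been seen to differ between genotypes at 22 days post fertilization (dpf) and to vary with zp3 and vasa over the wild-type arrays of that age. Their genotype differences and those wild-type correlations are therefore given as descriptions, with no test. Zp3 encodes a protein of the egg coat made by oocytes, and vasa (current symbol ddx4) encodes an RNA helicase that marks germ cells.

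The study, whose title concerns testis formation after early loss of primordial germ cells, measured RNA of developing trunk regions on 47 1-colour arrays. Morphants had received a morpholino against dnd, an RNA-binding protein that primordial germ cells need to survive, at the 1-cell stage. They were scored at 24 hours post fertilization as having 1 to 9 primordial germ cells. Wild-type fish carry the label of a high germ cell number, and the labels describe no control injection. At 14 dpf the table holds 9 arrays of morphants and 14 of wild type, and at 22 dpf it holds 10 of morphants and 14 of wild type. Per the labels all RNA was amplified before labelling, and each array is a biological replicate, but they do not say how many fish it holds. Of 10 replicates that the labels state for the younger morphants, 9 were analysed here.

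Melatonin is made from tryptophan in a series of steps. Tryptophan hydroxylase, which uses tetrahydrobiopterin, and dopa decarboxylase make serotonin, an N-acetyltransferase acetylates it, and acetylserotonin O-methyltransferase completes the hormone. Fish carry more than 1 Aanat gene. In fish, aanat2 is known as the enzyme of the pineal organ, where clock and light control it, and aanat1 is known mainly from the retina.

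Values are log2 intensities. Array medians ran from 7.26 to 7.70 and lower quartiles from 5.42 to 5.69, and no detection calls were used, so values near 5 lie at the dim end. Differences are morphant minus wild type in log2 units with their standard error (SE), from 1 fit in which all 4 groups share a spread. Skeletal muscle genes, the bulk of a trunk, were near the top of the scale in every group, with array means of 7 genes from 14.03 to 14.81. Of 42 measured genes on a list for photoreceptors of retina and pineal organ, 35 had a mean below 6 in morphants and 33 in wild type at 14 dpf. At 22 dpf 30 did in morphants and 28 in wild type. This list also holds tph2, a tryptophan hydroxylase gene that is counted again among the synthesis genes below. Exorh, the opsin of the pineal organ, averaged 7.27 ± 1.45 in morphants, against 7.18 ± 0.99 in wild type (SD, n = 10 and 14) at 22 dpf.

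In 6 pairs of arrays of a group both members deviated from the group in the same way, with a correlation of their deviations from 0.765 to 0.92, against 0.534 or less in the other of 263 pairs. At 22 dpf these were morphant arrays 1 and 2, morphant arrays 3 and 4, and wild-type arrays 5 and 6, 7 and 8, and 9 and 10. At 14 dpf they were morphant arrays 5 and 13. Array numbers are those of the titles. The main results are given with each pair averaged as well. The r of gene lists, and of single genes picked from them, are given with all arrays only. In whole trunks, fewer cells of a type and less RNA per cell cannot be told apart.

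At 22 dpf aanat1 had its highest levels in wild-type trunks. On the 10 morphant arrays of 22 dpf aanat1 had a lowest value of 4.40, a median of 5.87 and a highest value of 6.99. On the 14 wild-type arrays of 22 dpf the lowest was 5.16, the median 6.90 and the highest 9.27. Most morphants therefore sat under most wild types, and the groups overlapped. Of the 10 morphants 9 were under the median of wild type and 1 under every wild-type array, while 6 of 14 wild-type arrays lay above every morphant. Aanat1 averaged 5.82 ± 0.71 in morphants, against 7.08 ± 1.05 in wild type (SD, n = 10 and 14). The difference was -1.25 (SE 0.29), a ratio of 0.419. The SE draws on the spread of all 4 groups, and aanat1 spread less at 14 dpf (SD 0.38 in each genotype). It also counts near-duplicate arrays as separate, so it is smaller than the arrays of 22 dpf alone would give.

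Wild-type arrays 5 and 6 stood above all others, with 9.09 and 9.27, and they are the closest of the near-duplicate pairs. Without both the difference was -0.90, and with every near-duplicate pair averaged it was -1.18. Leaving out any single array gave -1.40 to -1.09, always lower in morphants. No batch is stated, so the difference was also taken within 2 ranges of the title numbers. Among numbers up to 12 aanat1 averaged 6.12 ± 0.76 in morphants, against 7.33 ± 1.18 in wild type (SD, n = 4 and 8). From number 13 on it averaged 5.63 ± 0.66 in morphants, against 6.75 ± 0.84 in wild type (SD, n = 6 and 6). The difference was -1.21 and -1.12 in the 2 ranges. These are the same arrays on which aanat1 was chosen, so the split and the arrays left out describe the difference and do not test it.

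At 14 dpf aanat1 was at the dim end in both genotypes. On the 9 morphant arrays it had a lowest value of 4.62, a median of 4.99 and a highest value of 5.60. On the 14 wild-type arrays the lowest was 4.36, the median 5.12 and the highest 5.75. All morphant values fell inside the wild-type range. The means were 5.12 ± 0.38 in morphants, against 5.13 ± 0.38 in wild type (SD, n = 9 and 14), a difference of -0.01 (SE 0.30). Its sign changed in 9 of the fits that left out 1 array of 14 dpf. The genotype difference at 22 dpf minus that at 14 dpf was -1.25 (SE 0.42). In order, aanat1 stood lowest in morphants and wild type of 14 dpf, which did not differ beyond their spread, then in morphants and then in wild type of 22 dpf. The ages appear to have been normalized in separate runs, so levels are not tested across age.

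**Figure D1:**
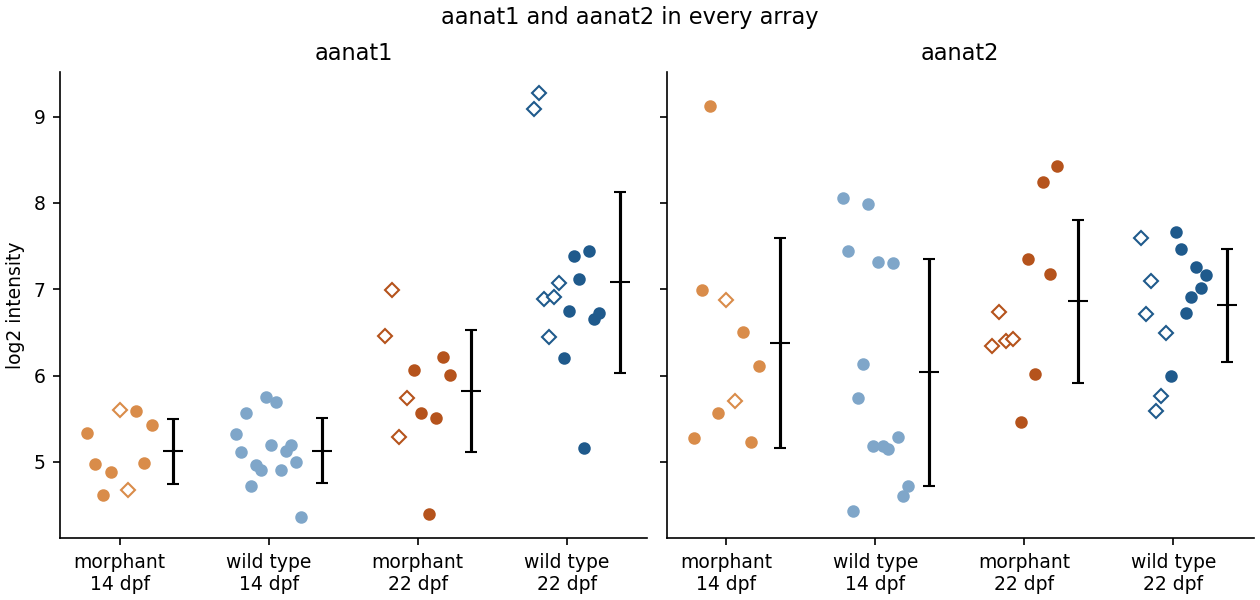
Log2 intensity of aanat1 (left) and aanat2 (right) in every array, with morphants left of wild type at 14 and at 22 dpf; points are arrays, open diamonds are arrays of a near-duplicate pair, and bars give the mean ± SD. Aanat1 of 22 dpf averaged 5.82 in morphants and 7.08 in wild type, with 2 wild-type arrays above 9, while aanat2 spread widely in all 4 groups.

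Aanat2 showed no such pattern. At 14 dpf it had a lowest value of 5.23, a median of 6.11 and a highest value of 9.12 in morphants. In wild type of 14 dpf the lowest was 4.43, the median 5.51 and the highest 8.06. Its spread was wide in both groups. Of the wild-type arrays 5 lay between 7.31 and 8.06 and the other 9 at 6.13 or less. The means were 6.38 ± 1.22 in morphants, against 6.04 ± 1.31 in wild type (SD, n = 9 and 14), a difference of 0.34 (SE 0.44). Morphant array 3, at 9.12, carried this difference, which was 0.00 without it.

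At 22 dpf aanat2 had a lowest value of 5.46, a median of 6.58 and a highest value of 8.43 in morphants. In wild type the lowest was 5.59, the median 6.96 and the highest 7.66. The groups overlapped over nearly their whole range, with 2 morphant arrays above every wild-type array and 1 below. Aanat2 averaged 6.86 ± 0.95 in morphants, against 6.82 ± 0.65 in wild type (SD, n = 10 and 14), a difference of 0.04 (SE 0.43). Leaving out single arrays gave -0.13 to 0.20. In order of its means, aanat2 stood lowest in wild type and then morphants of 14 dpf, then wild type and morphants of 22 dpf. No neighbours in that order differed beyond their spread. By median the order within 22 dpf was the reverse, and the order across ages was not tested. The difference of its genotype effects, 22 minus 14 dpf, was -0.30 (SE 0.61), and 0.04 without morphant array 3 of 14 dpf.

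Over the 14 wild-type arrays of 22 dpf, arrays high in zp3 and vasa tended to be high in aanat1. Zp3 itself averaged 6.32 ± 1.35 in morphants, against 10.86 ± 2.58 in wild type (SD, n = 10 and 14), where single arrays ran from 6.0 to 14.13. Vasa averaged 7.35 ± 1.93 in morphants, against 11.54 ± 0.90 in wild type (SD, n = 10 and 14). As a description of the wild-type arrays, aanat1 and zp3 had a Pearson r of 0.64 and a Spearman coefficient of 0.88. Without arrays 11 and 23, the 2 farthest from the median of zp3, r was 0.70. With the pairs averaged, which leaves 11 samples, r was 0.58 and the Spearman coefficient 0.91. Aanat1 and vasa had r = 0.67 and a Spearman coefficient of 0.69, without arrays 5 and 23 r = 0.68, and with the pairs averaged r = 0.58 and a Spearman coefficient of 0.76.

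The 4 arrays with the highest zp3 (5, 6, 19 and 22) were also the 4 with the highest vasa and the 4 with the highest aanat1. On those 4 arrays aanat1 ran from 7.38 to 9.27, and on the other 10 from 5.16 to 7.12. In all, 769 of 31475 rows (2.44%) had these same arrays as their 4 highest. At the low end of zp3, arrays 11 and 23 had 6.0 and 6.44 of zp3 and 6.20 and 6.65 of aanat1. Array 21 stood apart from the relation, with the lowest aanat1 of the group (5.16) beside a zp3 of 10.97.

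Aanat2 had lower correlations with zp3 and vasa on the same arrays. Its r was 0.33 with zp3 and 0.30 with vasa, and its Spearman coefficients 0.28 and 0.31. Without the 2 arrays farthest from the median of zp3 or vasa r was 0.27 and 0.35. With the pairs averaged r was 0.44 and 0.38. Of its 4 highest arrays 3 were among the 4 highest of zp3, but on those 4 it ran from 6.71 to 7.59, inside its range of 5.59 to 7.66 on the other 10. The difference from aanat1 was not tested, since these arrays chose the genes.

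**Figure D2:**
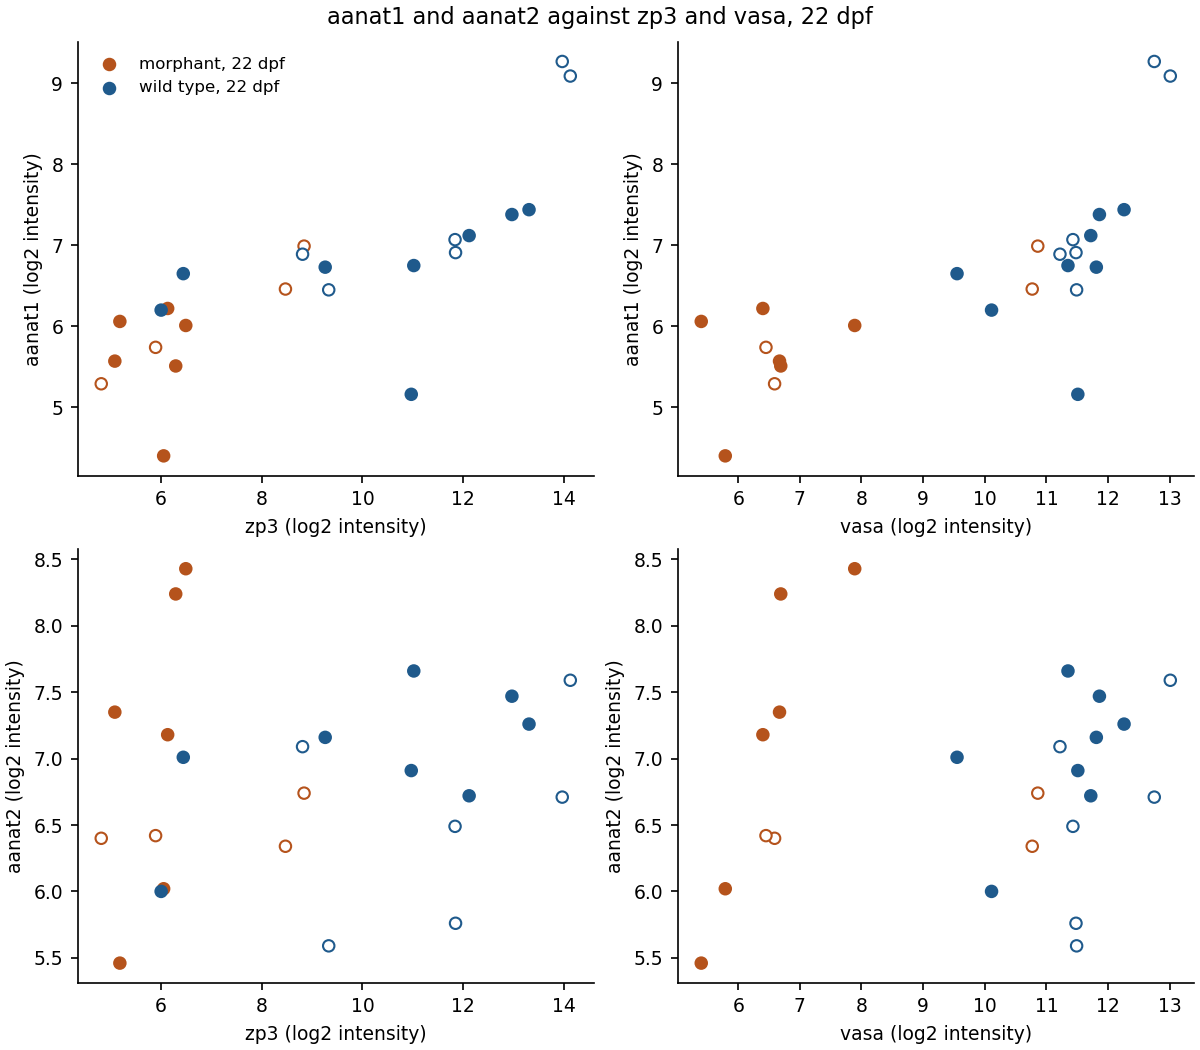
Aanat1 (top) and aanat2 (bottom) against zp3 (left) and vasa (right) on arrays of 22 dpf, all in log2 intensity, with morphants in brown and wild type in blue; open points belong to near-duplicate pairs. On wild-type arrays r was 0.64 and 0.67 for aanat1 and 0.33 and 0.30 for aanat2, and morphant arrays 1 and 2 sit apart from the other morphants in vasa.

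The relations with zp3 and vasa were tested in the other 3 groups, 12 relations in all, by two-sided permutation of Pearson's r (exact with 9 arrays, 100000 resamples with more). Of the 12, 3 had an unadjusted permutation p below 0.05 and none passed after Benjamini-Hochberg adjustment. The 10 morphant arrays of 22 dpf gave r = 0.65 and a Spearman coefficient of 0.62 for aanat1 with zp3 (permutation p = 0.0476, adjusted p = 0.19, and for the Spearman coefficient permutation p = 0.061, adjusted p = 0.244). They gave r = 0.70 and a Spearman coefficient of 0.42 for aanat1 with vasa (permutation p = 0.0237, adjusted p = 0.142, and for the Spearman coefficient permutation p = 0.232, adjusted p = 0.464). Both rested on arrays 1 and 2, a near-duplicate pair. Those arrays held vasa at 10.77 and 10.86, against 5.40 to 7.89 on the other 8 morphant arrays. They also had the highest aanat1 among morphants, 6.46 and 6.99. Without them r was 0.08 with zp3 and 0.27 with vasa, and with the pairs averaged it was 0.49 and 0.62 over 8 samples (adjusted p = 0.606 for each, exact permutation test). Without them the morphant minus wild type difference in aanat1 was -1.48.

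In morphants of 14 dpf, aanat2 with vasa had r = 0.88 (exact permutation p = 0.00977, adjusted p = 0.117) and a Spearman coefficient of 0.70 (exact permutation p = 0.0433, adjusted p = 0.244). Without arrays 3 and 4, the 2 farthest from the median of vasa, r was 0.49. Array 3 had the highest vasa (10.92) and the highest aanat2 (9.12) of that group, and the lowest aanat1 (4.62). For aanat1 with vasa in the same group r was -0.12 and the Spearman coefficient 0.27 (adjusted p = 0.846 and adjusted p = 0.701, exact permutation test), and r was 0.81 without those arrays (exact permutation p = 0.0313, adjusted p = 0.188). In morphants of 22 dpf, aanat2 with vasa had r = 0.11 (permutation p = 0.768, adjusted p = 0.846) and a Spearman coefficient of 0.50 (permutation p = 0.144, adjusted p = 0.431). Without arrays 1 and 2 it had r = 0.86 (exact permutation p = 0.00429, adjusted p = 0.0515), and with the pairs averaged r = 0.23 (adjusted p = 0.744, exact permutation test). Leaving out 2 arrays thus lowered r from 0.88 to 0.49 in the first of these relations and raised it in the others. With zp3, aanat2 had r = 0.57 and a Spearman coefficient of 0.77 in morphants of 14 dpf (adjusted p = 0.319 and adjusted p = 0.244, exact permutation test) and r = 0.07 and a Spearman coefficient of 0.27 in morphants of 22 dpf (adjusted p = 0.846 and adjusted p = 0.701, permutation test). Without the 2 arrays farthest from the median of zp3 these r were 0.63 and 0.57. Aanat1 with zp3 had r = 0.11 and a Spearman coefficient of 0.13 in morphants of 14 dpf (adjusted p = 0.846 and adjusted p = 0.811, exact permutation test). With the pairs averaged these were -0.36 and -0.43 (adjusted p = 0.651 and adjusted p = 0.598, exact permutation test). In the same group averaging gave r = 0.89 for aanat2 with vasa, 0.55 for aanat2 with zp3 and -0.30 for aanat1 with vasa. In morphants of 22 dpf it gave r = 0.14 for aanat2 with zp3.

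In wild type of 14 dpf, where zp3 was low, aanat1 had r = 0.29 with zp3 and -0.08 with vasa, and aanat2 had 0.20 and -0.34, with Spearman coefficients of 0.38, -0.18, 0.07 and -0.16. The lowest adjusted p of these was 0.606 for r and 0.446 for the Spearman coefficient by the permutation test. Without arrays 8 and 20, the 2 farthest from the median, the r were 0.30, -0.48, 0.28 and 0.02. Aanat1 and aanat2 were not seen to follow each other in any group. Their r was -0.23 and -0.05 in morphants and wild type of 14 dpf, and 0.09 and 0.30 in morphants and wild type of 22 dpf. The permutation test gave an adjusted p of 0.875 in each of these 4 groups. The Spearman coefficient was -0.07 and -0.04 in morphants and wild type of 14 dpf, and 0.02 and 0.32 in morphants and wild type of 22 dpf, with an adjusted p of 0.972 in each by the same test. Without the 2 arrays farthest from the median of aanat2 the r, in the same order, were 0.37, -0.05, 0.22 and 0.26. With the pairs averaged the r were -0.49, -0.05, 0.12 and 0.28, and the Spearman coefficients -0.24, -0.04, 0.0 and 0.45. The lowest adjusted p was then 0.817 for r and 0.648 for the Spearman coefficient by the permutation test.

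Oocyte and germ cell markers were lower in morphants of 22 dpf, as aanat1 was. Of 22 measured oocyte and egg coat genes, 19 fell and 0 rose in morphants of 22 dpf, where 3.49% of all rows were called, 0.591% as higher and 2.89% as lower (limma, adjusted p below 0.05). Their mean per array ran from 5.76 to 7.80 in morphants and from 6.52 to 12.52 in wild type. Of 20 germ cell genes 18 fell and 0 rose, with array means from 5.80 to 8.21 in morphants and from 7.60 to 10.32 in wild type. At 14 dpf, where 2.48% of rows were called, 1.15% as higher and 1.33% as lower, 1 oocyte gene (org, the oogenesis-related gene) and 12 germ cell genes fell and 0 rose. For the difference between ages 0.645% of rows were called, 0.0921% as higher and 0.553% as lower. There 7 oocyte genes, 1 germ cell gene and 1 ovarian somatic gene were lower. Of 10 ovarian somatic genes 4 fell at 22 dpf, namely the aromatase gene cyp19a1a (-2.37), foxl2b (listed as loc100149117, -2.15), the steroid dehydrogenase gene hsd17b1 (-1.38) and fshr (-1.45), and wnt4 (listed as wnt4a) rose at 14 dpf (0.95). Of 11 testicular somatic genes the androgen receptor gene ar (-0.86) and dmrt1 (-0.63) fell at 14 dpf, and gsdf (-1.55) and dmrt1 (-0.56) fell at 22 dpf. With the near-duplicate pairs averaged the germ cell gene nanos3 rose at 14 dpf (0.99, limma, adjusted p = 0.0487). The ovarian rise and the fall of fshr were then lost, and 1 testicular gene fell at each age. In the difference between ages 4 oocyte genes and 0 ovarian somatic genes were then lower. Of other tissues, 2 of 6 exocrine pancreas genes rose at 22 dpf (cela1.2, listed as loc100535584, and ela2l, 0 with the pairs averaged). All 6 were higher at an unadjusted limma p below 0.05, which 13.9% of all rows reached, and their median difference was 2.65. Of 4 adipose genes 1 rose at 22 dpf (fabp4a, listed as fabp11a), and 2 were higher at an unadjusted p below 0.05. Of 7 muscle genes 0 passed at either age (0 at an unadjusted p below 0.05). The part of these cell types in the difference of aanat1 was not tested.

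Over the wild-type arrays of 22 dpf the median r with aanat1 was 0.74 for the oocyte genes, 0.67 for the germ cell genes, 0.01 for the ovarian somatic genes and -0.06 for all rows. With aanat2 the medians were 0.32, 0.27, 0.15 and -0.02. Aanat1 was chosen for varying with zp3 and vasa on these same arrays, and the oocyte and germ cell lists hold zp3 and vasa. That choice favoured high medians with aanat1, so neither these medians nor their distance from those of aanat2 or all rows are a test. High values with aanat1 were those of the oocyte growth factors gdf9 (r = 0.88) and bmp15 (r = 0.87) and of zp3c (r = 0.86), another egg coat gene, 3 genes picked after their values had been seen.

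Photoreceptor genes, which mark the retina and pineal organ where these enzymes are best known, had a median r of -0.14 with aanat1 and 0.11 with aanat2. In wild type of 22 dpf 28 of these 42 genes had a mean below 6, and such dim values limit what r can show. Of 42 measured, 0 passed at 14 dpf (4 at an unadjusted p below 0.05), and 2 fell and 0 rose at 22 dpf, where 3.49% of all rows were called. Cone arrestin arr3a averaged 4.43 ± 0.26 in morphants, against 5.64 ± 1.23 in wild type (SD, n = 10 and 14), a difference of -1.21 (adjusted p = 0.0446). Pde6c, a cone phosphodiesterase subunit, averaged 5.28 ± 0.73 in morphants, against 6.32 ± 0.63 in wild type (SD, n = 10 and 14), a difference of -1.04 (adjusted p = 0.00573). Neither passed with the pairs averaged (adjusted p = 0.198 and adjusted p = 0.0558), and arr3a did not pass without any of 15 single arrays. Arr3a had an r of 0.73 with aanat1 and pde6c one of 0.05, while exorh had -0.03 with aanat1 and -0.06 with aanat2.

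The other enzymes of the pathway did not pass the test at either age. Of the 7 other synthesis genes, 0 rose and 0 fell at 14 dpf, at 22 dpf and in the difference between ages. Over all rows 2.48%, 3.49% and 0.645% were called there, and at such shares a list this short often holds 0 calls. The same holds for the short lists below. At an unadjusted p below 0.05 there was 1 in each comparison, namely ddc, tph1a and ddc, and the smallest adjusted p was 0.287, 0.284 and 0.442. Over all rows 16.7%, 13.9% and 11.1% had an unadjusted p below 0.05 in the same comparisons, which is the background for all such counts. The median difference of these genes was -0.26 at 14 dpf and -0.16 at 22 dpf, beside -0.01 and 0.04 over all rows.

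Among the tryptophan hydroxylases, which begin serotonin synthesis, tph1a had the widest spread in wild type of 22 dpf. At that age it had a lowest value of 4.52, a median of 5.75 and a highest of 7.26 in morphants. In wild type the lowest was 4.14, the median 6.35 and the highest 11.18. Tph1a was above every morphant on 5 wild-type arrays and within the morphant range or below it on the others. Its 4 highest wild-type arrays, 5, 6, 19 and 22, held the highest zp3 and aanat1. The same 4 arrays were the highest in 2.44% of all rows, and arrays 5 and 6 are the closest near-duplicate pair. Aanat1 was chosen on these arrays, so the match is a description. On the 4 arrays tph1a ran from 9.47 to 11.18, and on the other 10 wild-type arrays from 4.14 to 7.61. It averaged 5.68 ± 0.89 in morphants, against 7.17 ± 2.49 in wild type (SD, n = 10 and 14), a difference of -1.49 (SE 0.66, adjusted p = 0.284). With the pairs averaged the difference was -1.39 (limma, adjusted p = 0.525). At 14 dpf the tph1a difference was -1.05 (SE 0.69, adjusted p = 0.463). Its r over the wild-type arrays of 22 dpf was 0.69 with aanat1 and 0.51 with aanat2.

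**Figure D3:**
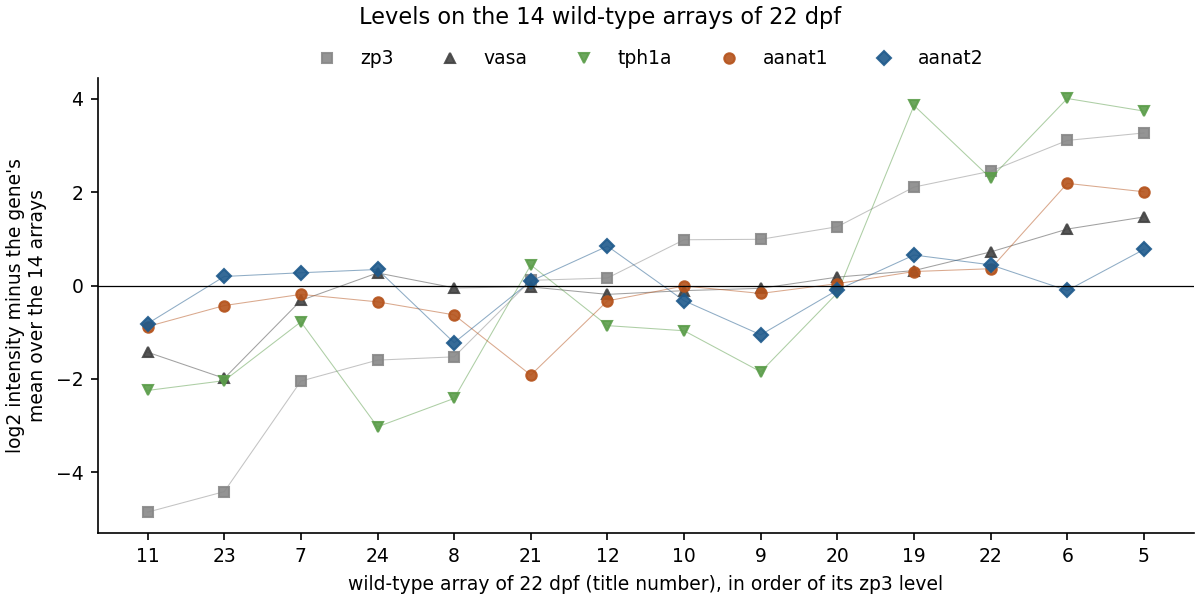
Levels of zp3, vasa, tph1a, aanat1 and aanat2 on the 14 wild-type arrays of 22 dpf, each as log2 intensity minus the gene's own mean over these arrays; arrays run from left to right in order of their zp3 level and carry their title numbers. Aanat1, vasa and tph1a are highest on arrays 19, 22, 6 and 5 at the right, while for aanat2 those arrays lie within the range of the others.

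Tph1b, the paralog of tph1a, averaged 6.68 ± 0.44 in morphants, against 6.88 ± 1.05 in wild type (SD, n = 10 and 14) at 22 dpf (adjusted p = 0.904). Tph2, the neuronal hydroxylase, averaged 7.52 ± 0.95 in morphants, against 7.67 ± 0.61 in wild type (SD, n = 10 and 14) (adjusted p = 0.905). For each of them 2 of the 4 highest wild-type arrays were among the 4 highest of zp3, against all 4 for tph1a and for 2.44% of all rows. Dopa decarboxylase, ddc, averaged 8.01 ± 0.30 in morphants, against 7.87 ± 0.29 in wild type (SD, n = 10 and 14) at 22 dpf (adjusted p = 0.809). At 14 dpf ddc averaged 7.16 ± 0.49 in morphants, against 7.52 ± 0.48 in wild type (SD, n = 9 and 14) (adjusted p = 0.287).

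For the methyltransferases that act after Aanat, asmt averaged 6.04 ± 0.77 in morphants, against 5.97 ± 0.81 in wild type (SD, n = 10 and 14) at 22 dpf (adjusted p = 0.957). Its paralog asmt2 (listed as zgc:162232) averaged 8.66 ± 0.43 in morphants, against 9.13 ± 0.47 in wild type (SD, n = 10 and 14). The asmt2 difference was -0.47 (SE 0.34, adjusted p = 0.599). The related asmtl averaged 10.64 ± 0.36 in morphants, against 10.56 ± 0.22 in wild type (SD, n = 10 and 14) (adjusted p = 0.892). At 14 dpf their adjusted p-values were 0.719, 0.933 and 0.575.

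Of 8 listed melatonin receptor genes 6 were measured, and 0 rose and 0 fell in any of the 3 comparisons. At an unadjusted p below 0.05 there were 1 (mtnr1ba), 0 and 1 (mtnr1al) for 14 dpf, 22 dpf and the difference between ages. Group means lay at the dim end for all but mtnr1aa. Mtnr1aa averaged 6.03 ± 0.44 in morphants, against 6.19 ± 0.41 in wild type (SD, n = 10 and 14) at 22 dpf. Differences at 22 dpf were 0.16 for mtnr1ab (listed as loc565718), 0.35 for mtnr1al, -0.06 for mtnr1ba, -0.13 for mtnr1bb and 0.21 for mtnr1c. The lowest adjusted p of the 6 was 0.651 at 22 dpf and 0.236 at 14 dpf, where mtnr1ba differed by -0.57.

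**Figure D4:**
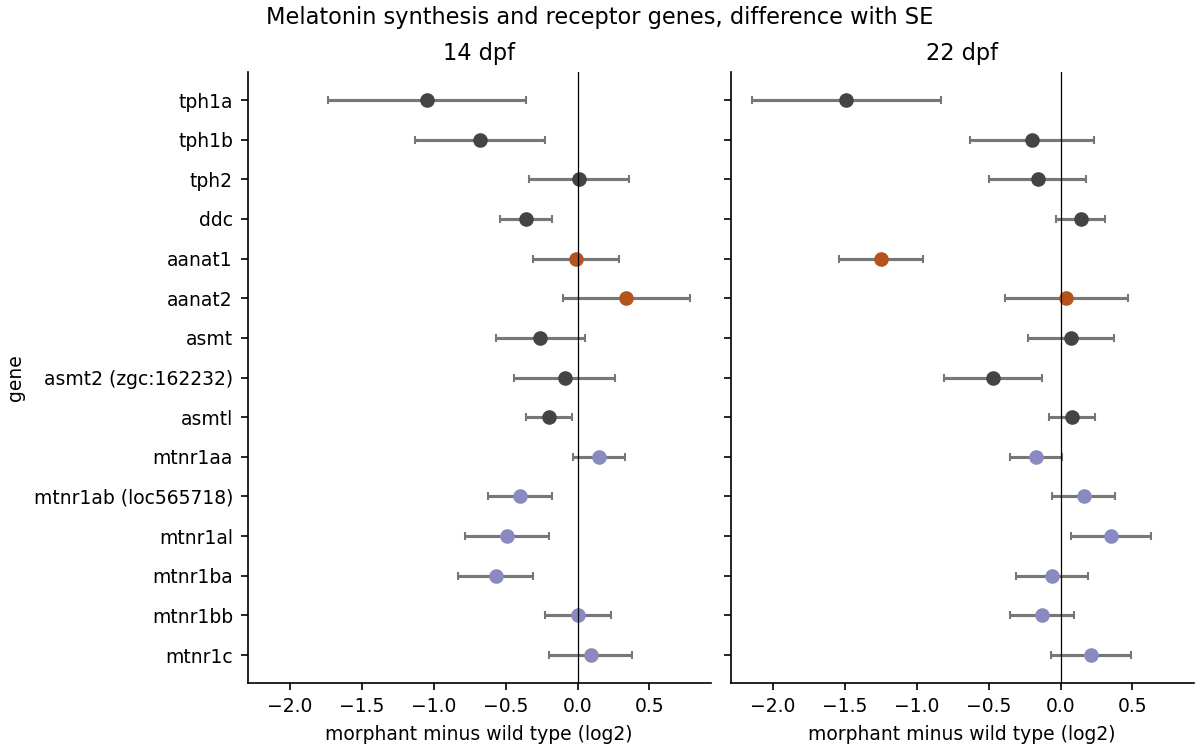
Morphant minus wild type differences (log2, bars are the SE of the fit) for melatonin synthesis and receptor genes at 14 dpf (left) and 22 dpf (right); aanat1 and aanat2 are brown, other synthesis genes dark grey and receptors violet. At 22 dpf tph1a (-1.49) and aanat1 (-1.25) lie farthest from 0.

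Genes around the pathway gave few calls, as short lists would at the shares called over all rows (2.48% at 14 dpf and 3.49% at 22 dpf). Of 9 tetrahydrobiopterin genes 0 passed at either age (1 and 3 at an unadjusted p below 0.05). The nearest was qdprb2, of the dihydropteridine reductase family that regenerates the cofactor. It averaged 4.84 ± 0.47 in morphants, against 5.78 ± 1.14 in wild type (SD, n = 10 and 14) at 22 dpf, a difference of -0.94 (SE 0.29, adjusted p = 0.0588). With the near-duplicate pairs averaged the difference was -0.77 and further from passing (limma, adjusted p = 0.234). The morphant mean lies at the dim end. The r of qdprb2 with aanat1 was 0.88 over the wild-type arrays of 22 dpf, pairs included. This gene lies outside the rule for named genes and was picked after its values had been seen.

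Of 15 genes of serotonin transport, breakdown and reception, 0 passed at either age (1 and 0 at an unadjusted p below 0.05). Of 10 genes of 14-3-3 proteins, which bind phosphorylated Aanat and keep it active, 0 passed (0 and 3 at an unadjusted p below 0.05). Of 12 genes of acetyl-CoA supply and polyamine acetylation 0 passed (3 and 1 at an unadjusted p below 0.05). In the difference between ages these 3 lists and the tetrahydrobiopterin genes also had 0 calls, with 1, 0, 1 and 2 genes at an unadjusted p below 0.05.

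Of 45 circadian clock genes, 2 rose and 0 fell at 14 dpf, where 2.48% of all rows were called. Bmal1a (listed as arntl1a), a core activator of the clock, averaged 10.87 ± 0.83 in morphants, against 9.98 ± 0.60 in wild type (SD, n = 9 and 14). The bmal1a difference was 0.89 (SE 0.24, adjusted p = 0.0373), and with the pairs averaged it did not pass (adjusted p = 0.0529). Nfil3, a clock-linked bZIP repressor, averaged 10.85 ± 0.59 in morphants, against 9.35 ± 1.12 in wild type (SD, n = 9 and 14). The nfil3 difference was 1.50 (SE 0.39, adjusted p = 0.0256), and all 9 morphants were above the median of wild type. It passed with the pairs averaged (adjusted p = 0.0439), and so did the period gene per3 as lower (-1.76, adjusted p = 0.0474), which differed by -1.42 with all arrays (adjusted p = 0.0944). At 22 dpf and in the difference between ages 0 clock genes passed (2 and 7 at an unadjusted p below 0.05). The labels do not give the hour of sampling. Over the wild-type arrays of 22 dpf the median r of the clock genes was -0.06 with aanat1 and -0.27 with aanat2.

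Likeness to each enzyme was taken as Pearson's r over the 14 wild-type arrays of 22 dpf and all other rows of the table. For aanat1, 442 rows had an r of 0.8 or more and 90 an r of -0.8 or less, and with the pairs averaged 279 and 54. By Pearson's r, 1664 rows were more like aanat1 than zp3 was, and 1465 exceeded vasa. This order depends on the measure. The Spearman coefficient with aanat1 was 0.88 for zp3, and 0.60 to 0.91 for the 8 named genes with the highest r. For aanat2 the counts were 7 and 7, and with the pairs averaged 43 and 73. How many rows would reach such r by chance was not tested, so these counts and the genes named below are descriptions.

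The 8 named genes most like aanat1 had r from 0.92 to 0.94. They were grxcr1b (listed as loc562104), known in vertebrates from sensory hair cells, eme1, part of a DNA repair nuclease, and b3glctb (listed as b3galtlb), a glucosyltransferase. The others were mtfr2 (listed as zgc:153910), a mitochondrial fission regulator, wdr62 (listed as si:ch211-152c12.2), a spindle pole protein, and b4galnt2.2 (listed as loc557782), a glycosyltransferase. They ended with nectin3b (listed as pvrl3l), an adhesion protein, and tmem266 (listed as zgc:158624), a membrane protein. Averaging the pairs kept 6 of the 8 among the highest. Without arrays 5 and 6 their r was 0.70 to 0.80. In the other groups the same genes had r from -0.50 to 0.68 in morphants of 14 dpf, from -0.20 to 0.33 in wild type of 14 dpf and from -0.46 to 0.33 in morphants of 22 dpf. The lowest r with aanat1 were those of grhl2b (-0.89), an epithelial transcription factor, ndfip2 (-0.88), an adaptor of ubiquitin ligases, and nkpd1 (listed as loc561946, -0.87). Nkpd1 averaged 4.51 in wild type of 22 dpf, at the dim end.

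For aanat2 the 8 were KCNAB1, a potassium channel subunit (r = 0.85), tdrkh (listed as zgc:113056), a Tudor protein of the piRNA pathway (r = 0.82), and the corepressor gene rcor2 (r = 0.80). After them came spats2 (listed as zgc:154064, r = 0.80), the proton pump subunit atp6v0a2b (r = 0.79), the ubiquitin ligase rnf34a (r = 0.78), rab43 of the Rab GTPases (r = 0.76) and the netrin receptor unc5a (r = 0.75). Averaging the pairs kept 3 of the 8. In the other groups these genes had r from -0.60 to 0.60 in morphants of 14 dpf, from -0.36 to 0.25 in wild type of 14 dpf and from -0.38 to 0.44 in morphants of 22 dpf. The lowest r were those of the odorant receptor gene or80a10 (listed as or106-10, -0.87), cnot6b (listed as zgc:171797, -0.84), of the deadenylase complex, and rap2ab (listed as loc100003903, -0.82), of the Ras superfamily. KCNAB1, atp6v0a2b and or80a10 averaged 4.59, 5.02 and 4.68 in wild type of 22 dpf, at the dim end. No gene was in both sets of 8. Sets of 8 out of 18825 rows with a gene name would rarely share a gene by chance. The lack of a shared gene therefore does not show that the enzymes differ in the genes most like them.

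**Figure D5:**
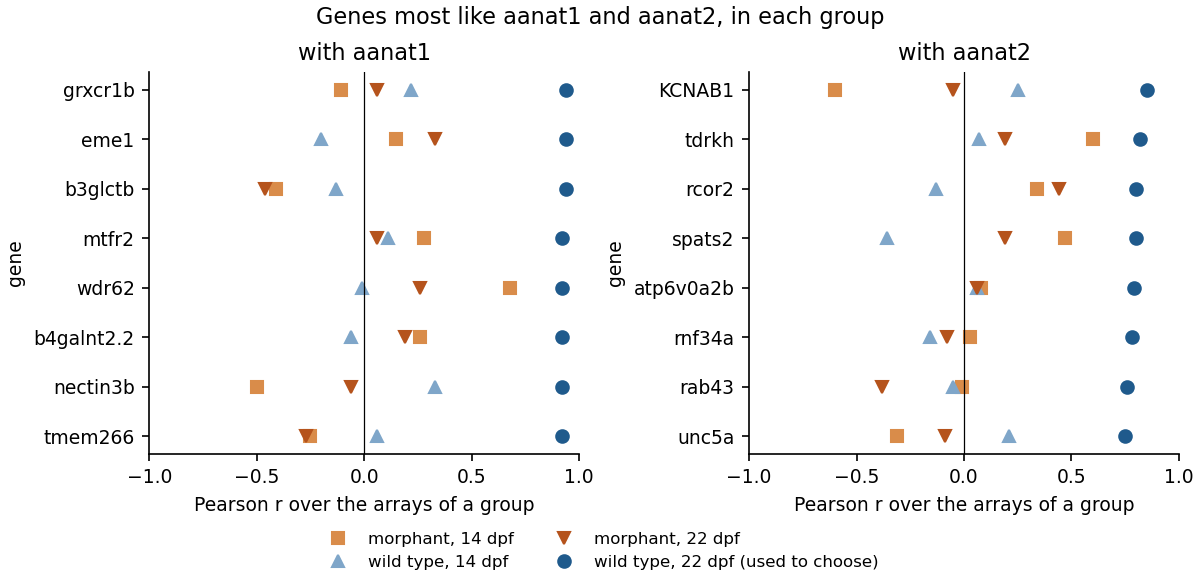
Pearson r of the 8 named genes most like aanat1 (left) and aanat2 (right), taken over the arrays of each group, with the wild-type arrays of 22 dpf that chose the genes as circles. The choosing values lie at 0.92 to 0.94 for aanat1 and 0.75 to 0.85 for aanat2, and the values in the other 3 groups scatter around 0.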

How the data were processed

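Total RNA was amplified, labelled with Cy3 and hybridized to 1-colour NimbleGen arrays, per the labels. Log2 intensities of 31475 rows on 47 arrays were used as the authors deposited them. The submitters' processing notes name RMA, and no version is given there. The number of arrays limits the precision.

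Groups came from the labels. Row names were matched to current zebrafish symbols through reference tables (22614 matched, 8815 did not and 46 matched several genes), and a gene with several rows was represented by the one with the highest mean. A model of the 4 group means (43 residual degrees of freedom) was fitted with limma 3.58.1 in R 4.3.3, with Benjamini-Hochberg adjustment over all rows and calls at an adjusted p below 0.05. Correlations used SciPy 1.17.1. The fit and the search for like genes were tested on simulated data. There the fit called 36.0% of rows changed by 1 log2 unit at 14 dpf and 32.0% at 22 dpf. With a change of 2 units it called 84.0% and 88.0%. The simulated arrays were independent, with the same spread of a row in all groups, which the near-duplicate pairs do not meet. A gene that did not pass may therefore still differ by about 1 unit, and a gene with a wide spread by more. At 22 dpf tph1a did not pass with a difference of -1.49 (SE 0.66).

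Aanat1, aanat2 and the gene lists were chosen with earlier results of these data known. Named were the synthesis and receptor genes, called genes of other lists (at most 4 a comparison), and the 8 rows with the highest and the 3 with the lowest r. Other genes are marked as picked later, except exorh, named as a tissue check. Nanos3 and per3 also lie outside this rule and were named for calls seen only with the pairs averaged. Of the germ cell, gonad, pancreas, adipose and muscle lists mainly counts are given. Equal values below 3.7 numbered 10 within 14 dpf, 51 within 22 dpf and 2 between ages, which is why ages are not tested against each other. Near-duplicates are pairs whose deviations from the mean of the other arrays of the group, in rows whose mean was 8 or more, correlated above 0.65. Alternatives covered scaling, averaged pairs, a block for title numbers up to 12, arrays of 1 age, a filter, a variance trend and single arrays left out. No sequences were used here.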

Additional observations from a re-analysis of the deposited data

Results flagged for a closer look

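Single arrays far from the rest of their group were looked for with Dixon's test in 34 groups of 9 or 10 morphant values, where chance gives about 1 in 20. Morphant array 3 of 14 dpf stood out in aanat2 (9.12), vasa (10.92) and tph1a (6.75). Without it the aanat2 difference at 14 dpf was 0.00 in place of 0.34. At 22 dpf morphant array 18 stood out in asmt (7.96). Morphant array 4 stood out in asmt2, listed as zgc:162232 (9.64), and in mtnr1ab, listed as loc565718 (6.09). Morphant array 14 stood out in mtnr1ba (5.84). None of these arrays stood out in aanat1.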

How the results depend on the processing

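The aanat1 difference at 22 dpf stayed negative in every alternative run, from -1.48 without morphant arrays 1 and 2 to -0.90 without wild-type arrays 5 and 6, 2 settings chosen after seeing the data. It was -1.22 with arrays centred on their median and -1.16 with title numbers as a block. Aanat1 was chosen on these same arrays, so the constant sign describes the difference and does not test it. Leaving out single arrays gave -1.40 to -1.09 at 22 dpf, -0.07 to 0.06 at 14 dpf and -1.40 to -1.08 for the difference between ages. For aanat2 these ranges were -0.13 to 0.20, 0.00 to 0.50 and -0.47 to 0.04. Averaging near-duplicate pairs gave 400 calls over all rows at 14 dpf, 667 at 22 dpf and 66 for the difference between ages, against 780, 1097 and 203 with all arrays. A fit of 14 dpf alone gave 195, and the difference between ages gave 123 without wild-type arrays 5 and 6. Centring moved the split at 14 dpf to 493 higher and 328 lower, against 362 and 418. The cause was not tested. The relation of aanat1 with zp3 in wild type of 22 dpf was 0.88 by rank and 0.64 by Pearson's r. Bmal1a lost its call without any of 7 arrays (morphant 2, 3, 4 or 16, or wild-type 7, 17 or 18, of 14 dpf), and nfil3 without morphant array 1 or 15 of 14 dpf. Arr3a lost its call without any of 15 arrays of 22 dpf (every morphant but 15, or wild-type 5, 6, 7, 19, 20 or 22). No paired analysis was possible because morphant and wild-type arrays of an age share no title number. Aanat1 at 14 dpf and most receptor genes lie near the dim end of the scale, which limits what could be seen there.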
